A study of Mus musculus with 6 samples.

Results

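The genes described here are the fibroblast growth factors (FGF) and their receptors, the WNT ligands and their Frizzled receptors, and the bone morphogenetic proteins (BMP), growth differentiation factors (GDF), activin beta subunits and type I and II BMP receptors. They were taken by gene symbol, with no use of their values, and 83 of the 47480 rows of the deposited table matched. Earlier results of these data were known when the families were chosen. RNA had been sequenced from VMHpvlm and VMHpvll, areas of the ventrolateral part of the ventromedial hypothalamus (VMH), cut by laser capture from frozen sections. All mice were females of the VgluT2-cre/Ai6 background, in which cells with a history of the glutamate transporter gene Slc17a6 carry a fluorescent reporter, so the regions did not differ in genotype. The 3 libraries of VMHpvlm carry the names F19, F20 and KH_161103 in their titles, and so do the 3 of VMHpvll. The PicoPure kit served for RNA extraction and a Clontech SMARTer stranded kit for total RNA libraries. The sources used here do not give age, the number of animals, or the borders of the captured areas, and no sort of single cells is described.

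FGF ligands signal through receptor tyrosine kinases (Fgfr1 to Fgfr4) to the MAP kinase cascade, and cells answer by switching on feedback inhibitors such as the Sprouty, Spred and Dusp genes. WNT ligands bind Frizzled receptors and either stabilise beta-catenin or act through planar polarity and calcium pathways, while secreted proteins such as the Sfrp family capture the ligand. BMP, GDF and activin ligands bind pairs of serine/threonine kinase receptors that phosphorylate Smad proteins, and the Id genes are classic targets of BMP signalling. In the adult brain these families are known for roles in synapse formation, glial maintenance, vessels and the hypothalamic control of metabolism.

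Values are read counts divided by a size factor for each library, called normalised counts below. Recovered depth lay between 7157831 and 11293159 reads per library. A difference is the VMHpvlm level less the VMHpvll level after taking log2(value + 1), which understates the change of low genes. Differences were fitted by limma with the shared title names as pairs, and a gene was called at a Benjamini-Hochberg adjusted p below 0.05. Means are given ± SD over 3 libraries and differences ± SE.

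VMHpvlm was richer in FGF10, WNT5A and WNT7A transcripts, and VMHpvll in transcripts of the activin beta B subunit, the receptor Fzd5 and the ligand Bmp3. Fgf10 was 5.26-fold higher in VMHpvlm, Wnt5a 1.71-fold and Wnt7a 1.64-fold. Inhbb was 2.34-fold higher in VMHpvll, Fzd5 2.31-fold and Bmp3 1.59-fold. The other 8 called members had ratios of region means between 1.12 and 1.46, among them Fgf1, Fgf13 and the receptor Fgfr1 toward VMHpvlm. The call of Wnt7a ended without the F19 pair (limma adjusted p = 0.142), without the KH_161103 pair (0.0619) and with DESeq2 (0.142). Inhbb was not called by DESeq2 either (adjusted p = 0.0737). The calls of Fgf1 and Fgf13 held in these fits.

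Of the 83 members, 42 had a mean of at least 10 normalised counts over the 6 libraries and were tested, and 41 lay under that level. Of the 42 tested, 8 were called higher in VMHpvlm, where 10.5% of all tested genes were called in that direction, and 6 higher in VMHpvll, where the share of all tested genes was 9.48%. The number of genes tested in all was 14522. Values of the regions did not overlap for 10 members higher in VMHpvlm and 9 higher in VMHpvll, beside 14.5% and 13.5% of all tested genes. The median difference of the tested members was -0.19 on the log2 scale, and that of all tested genes was 0.00. The FGF genes lay mostly on the VMHpvlm side (4 of 9 tested were called, all of them there), and the BMP, GDF and activin genes on the VMHpvll side (4 of 9 tested were called, all of them there). The WNT and Frizzled genes were divided.

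**Figure D1:**
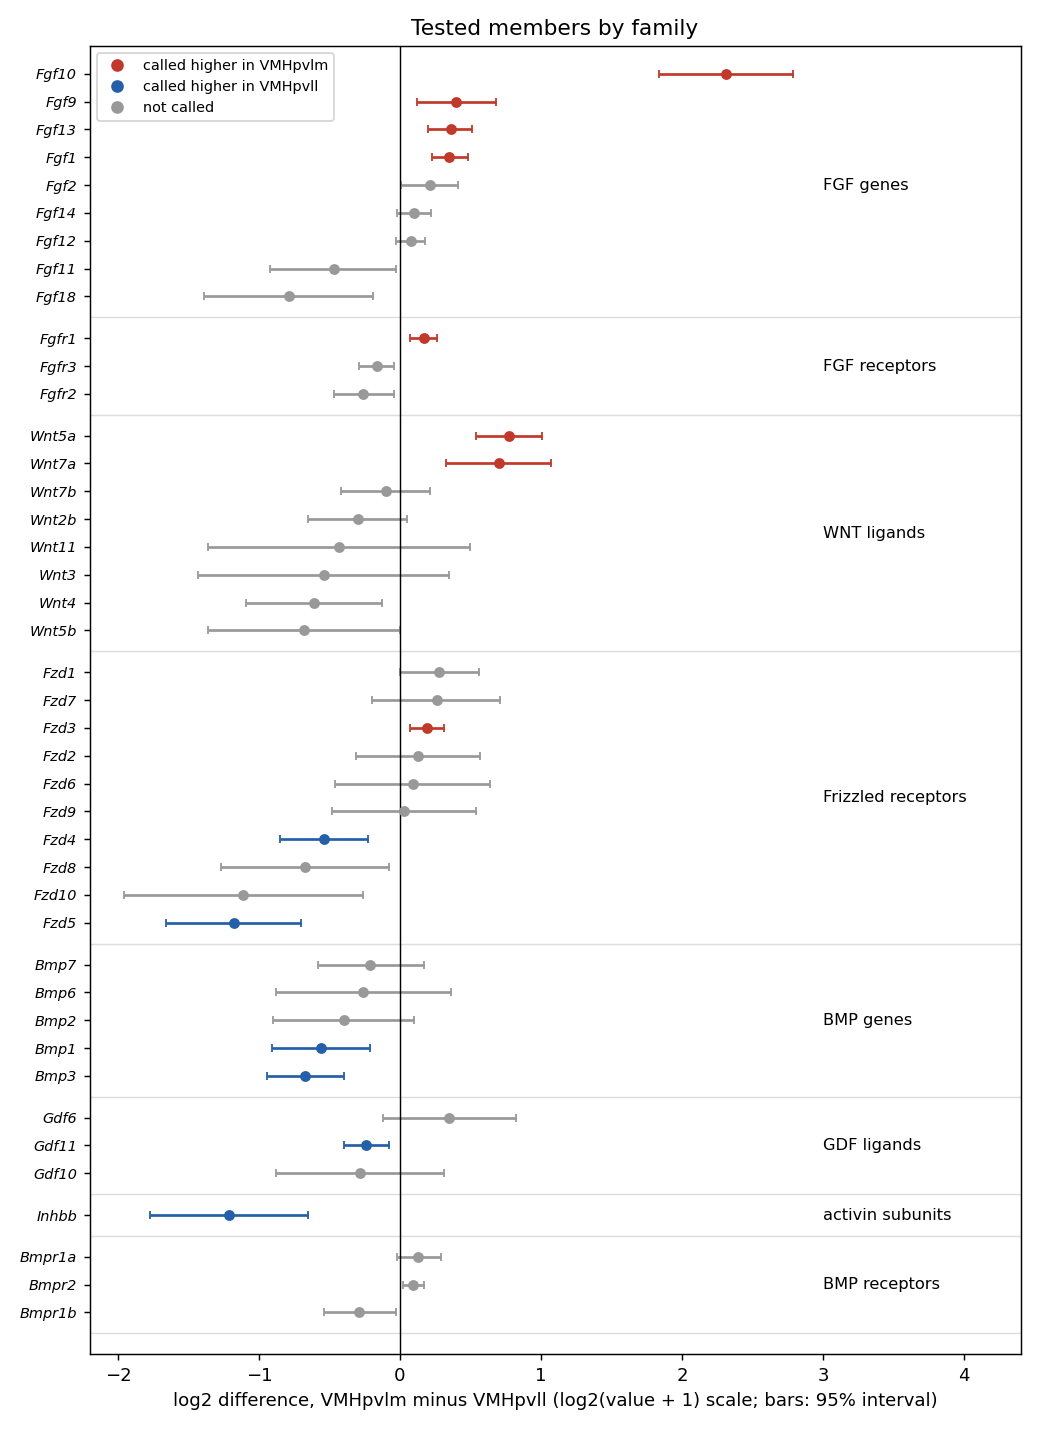
Fitted log2 difference (VMHpvlm minus VMHpvll) of the 42 tested members with 95% intervals, grouped by family. Red points (8 genes) were called higher in VMHpvlm, blue points (6 genes) higher in VMHpvll, and grey points (28 genes) were not called. Fgf10 stands farthest from 0.

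Of the calls, 7 held when each pair of libraries was left out in turn: Fgf1, Fgf10, Fgf13, Wnt5a, Bmp3, Fzd5 and Inhbb. The other 7 lost the call in at least 1 of those fits, as given beside each below. All 14 were also called by edgeR on recovered whole reads. DESeq2 called 6 of the 14, which were the 7 held calls without Inhbb (adjusted p = 0.0737). The 7 calls that did not hold had DESeq2 adjusted p-values from 0.142 (Wnt7a) to 0.427 (Fgf9). With limma's prior variance fitted without trend and robust weights, Fgf10 (adjusted p = 0.0308) and Wnt5a (0.0403) were the only ones of the 14 still called. In that fit Wnt5b (0.0397) and Fzd10 (0.0484) were called higher in VMHpvll.

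The sequences just before the start sites of the members with the largest differences in each direction are shown so that the genes behind the main result can be seen at the DNA level. For each direction they are the 2 called members with the largest difference among those with a single start site in the RefSeq table used here (GRCm38.p6). Each is the 250 bases before the start site on the gene's strand, 5′ to 3′, with CpG dinucleotides in capitals. Fgf10 lies at chr13:118714449-118714698 (plus strand), Wnt7a at chr6:91411354-91411603 (minus), Inhbb at chr1:119422249-119422498 (minus) and Fzd5 at chr1:64737751-64738000 (minus).
Fgf10: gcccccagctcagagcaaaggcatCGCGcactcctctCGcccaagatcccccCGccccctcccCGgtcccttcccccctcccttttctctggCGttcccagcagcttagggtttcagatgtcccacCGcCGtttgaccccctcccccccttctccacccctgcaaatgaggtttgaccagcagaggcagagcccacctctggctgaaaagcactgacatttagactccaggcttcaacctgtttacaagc
Wnt7a: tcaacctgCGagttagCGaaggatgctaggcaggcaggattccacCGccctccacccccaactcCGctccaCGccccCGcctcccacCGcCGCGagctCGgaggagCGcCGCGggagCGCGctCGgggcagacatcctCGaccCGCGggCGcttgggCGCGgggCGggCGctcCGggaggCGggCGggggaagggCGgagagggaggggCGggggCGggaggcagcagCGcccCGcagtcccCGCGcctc
Inhbb: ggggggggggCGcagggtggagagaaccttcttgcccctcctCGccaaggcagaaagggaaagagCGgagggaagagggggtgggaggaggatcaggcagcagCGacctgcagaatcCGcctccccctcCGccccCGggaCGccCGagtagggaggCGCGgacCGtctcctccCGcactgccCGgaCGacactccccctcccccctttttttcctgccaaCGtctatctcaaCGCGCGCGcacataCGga
Fzd5: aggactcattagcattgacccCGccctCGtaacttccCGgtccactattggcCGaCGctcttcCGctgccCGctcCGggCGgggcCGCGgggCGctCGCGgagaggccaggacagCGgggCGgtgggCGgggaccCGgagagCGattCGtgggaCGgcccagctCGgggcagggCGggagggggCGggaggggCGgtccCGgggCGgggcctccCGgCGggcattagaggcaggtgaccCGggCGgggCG

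The Fgf10 window held 8 CpG dinucleotides, the Inhbb window 21, the Fzd5 window 32 and the Wnt7a window 34. The median over 32851 windows of the same length was 6, and over the 74 windows of members it was 16.5. These 74 windows belonged to 60 of the 83 members. The site of Nr5a1, a VMH transcription factor with the largest log2 difference among the 8 VMH neuron markers (308 ± 19.5 in VMHpvlm and 31.5 ± 6.73 in VMHpvll), was searched as AAGGTCA on both strands and was found in 0 of the 74 windows and in 4.08% of all windows. The site of TCF/LEF factors, the nuclear partners of beta-catenin, was searched as ATCAAAG on both strands. It was found in 3 of the 74, at Fgf6, Wnt11 and Wnt5b, and in 3.21% of all windows.

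Among the secreted FGF ligands, Fgf10 showed the widest gap between the regions. Fgf10 encodes a ligand of the IIIb form of Fgfr2 that is known in the hypothalamus from tanycytes. The 5 markers of tanycytes and ependyma summed to 178 to 305 normalised counts in VMHpvlm and 365 to 568 in VMHpvll. Of the 3 tested, 1 (Nes) was called, higher in VMHpvll. Vim (limma adjusted p = 0.166) and Foxj1 (0.86) were not called. Rax was at a mean of 0.463 in VMHpvlm and 2.16 in VMHpvll. The part of these cells in the result for Fgf10 was not tested. Its normalised counts were 70.4, 112 and 101 in the F19, F20 and KH_161103 libraries of VMHpvlm, and 17.6, 20.9 and 15.5 in those of VMHpvll. Every VMHpvlm library lay above every VMHpvll library, and the KH_161103 pair had the widest gap on the log2 scale. The difference was 2.31 ± 0.24 (limma adjusted p = 1.08e-10, 3 of 3 pairs). In GENCODE Fgf10 spans 118669791 to 118792115 on chromosome 13 of mm10. That span begins upstream of the RefSeq start whose window is printed above, so the window lies inside it. In the same annotation 2.67% of its exon bases overlap the opposite-strand gene Gm16263, so a few of its reads could belong to that gene.

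Fgf1, the acidic FGF that binds all FGF receptors, had counts of 887, 992 and 834 in VMHpvlm and 767, 706 and 648 in VMHpvll. The regions did not overlap, although the lowest VMHpvlm library (KH_161103) and the highest VMHpvll library (F19) came close. The difference was 0.35 ± 0.06 (limma adjusted p = 2.16e-05). Fgf9, which acts mainly on Fgfr3 and is also made by neurons, had counts of 137, 149 and 119 in VMHpvlm and 96.7, 121 and 89.5 in VMHpvll. Its regions overlapped between pairs, while VMHpvlm was higher within each of the 3 pairs. The difference of Fgf9 was 0.40 ± 0.14 (limma adjusted p = 0.0371). That call ended without the F19 pair (adjusted p = 0.203), without the F20 pair (0.0511), without the KH_161103 pair (0.159), without the pairing (0.114) and with no filter on low values (0.0699).

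Fgf2, the basic FGF of astrocytes, was at 259 ± 8.79 in VMHpvlm and 224 ± 7.93 in VMHpvll, with no overlap. It was not called (log2 difference 0.21, 95% interval 0.01 to 0.41, limma adjusted p = 0.153). Of its exon bases, 13.2% overlap Nudt6 or Gm43439. Fgf18 pointed the other way, with counts of 24.4, 15.3 and 16.3 in VMHpvlm and 47.3, 31.3 and 22.8 in VMHpvll. It was lower in VMHpvlm in 3 of 3 pairs but was not called (log2 difference -0.79, 95% interval -1.39 to -0.19, limma adjusted p = 0.0536, and 0.0464 with a pseudocount of 5).

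Per kilobase of exon, Fgf1 was the most abundant secreted FGF transcript in both regions, at 166 ± 14.8 normalised reads per kb in VMHpvlm and 129 ± 10.9 in VMHpvll. Fgf2 followed in both, at 38.3 ± 1.30 and 33.1 ± 1.17. Fgf10 was at 20.6 ± 4.71 per kb in VMHpvlm and 3.91 ± 0.584 in VMHpvll. Of the summed per-kb level of the 18 secreted FGF genes, Fgf1 made up 58.3% ± 1.27 in VMHpvlm and 56.3% ± 1.72 in VMHpvll. The share of Fgf10 was 7.25% ± 1.61 against 1.70% ± 0.187, and that of Fgf18 was 5.57% ± 1.54 against 12.2% ± 3.51.

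The FGF homologous factors Fgf11 to Fgf14 are not secreted and bind voltage-gated sodium channels inside neurons. Fgf13 was called, with counts of 500, 529 and 517 in VMHpvlm and 376, 421 and 410 in VMHpvll. The regions were well apart, and the pair differences were close to each other at 0.41, 0.33 and 0.33 (log2). The fitted difference was 0.36 ± 0.08 (limma adjusted p = 0.00036). Fgf12 (1259 ± 63.7 against 1195 ± 76.0) and Fgf14 (860 ± 48.1 against 802 ± 34.9) were the most abundant of the group and were not called. Their 95% intervals, -0.03 to 0.18 for Fgf12 and -0.02 to 0.22 for Fgf14 on the log2 scale, leave room for small differences only. Fgf11 (43.3 ± 15.1 against 58.4 ± 5.87) had a limma adjusted p of 0.131. Per kb of exon, the 4 genes together reached 551 ± 14.7 in VMHpvlm and 504 ± 17.8 in VMHpvll, more than the 18 secreted FGF genes (284 ± 20.2 and 230 ± 21.7).

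Among the receptors, Fgfr1, the form most used by neurons, was called toward VMHpvlm. Its counts were 1551, 1573 and 1756 in VMHpvlm and 1409, 1400 and 1532 in VMHpvll. The groups met closely, at 1551 and 1532, and the KH_161103 libraries were the highest of each region. The difference was 0.17 ± 0.05 (limma adjusted p = 0.0083), and the call ended without the KH_161103 pair (adjusted p = 0.136) and without the pairing (0.116). Fgfr3, a receptor found mainly on astrocytes, had counts of 754, 720 and 738 in VMHpvlm and 861, 807 and 811 in VMHpvll. All VMHpvll libraries were higher, but the gene was just outside the call (log2 difference -0.16, 95% interval -0.29 to -0.04, limma adjusted p = 0.0501, 0.0402 among genes with a mean of at least 50, and 0.0318 by edgeR). Of the exon bases of Fgfr3, 13.9% overlap G630022F23Rik on the other strand. Fgfr2, of glial cells, was at 207 ± 25.3 against 248 ± 36.3 and was not called (limma adjusted p = 0.0862). The 4 receptor genes summed to 288 ± 9.52 normalised reads per kb in VMHpvlm and 287 ± 4.45 in VMHpvll. Fgfr1 made up 57.1% ± 2.03 of that sum in VMHpvlm and 51.1% ± 2.37 in VMHpvll, and Fgfr3 made up 35.8% ± 1.5 and 40.2% ± 1.12.

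**Figure D2:**
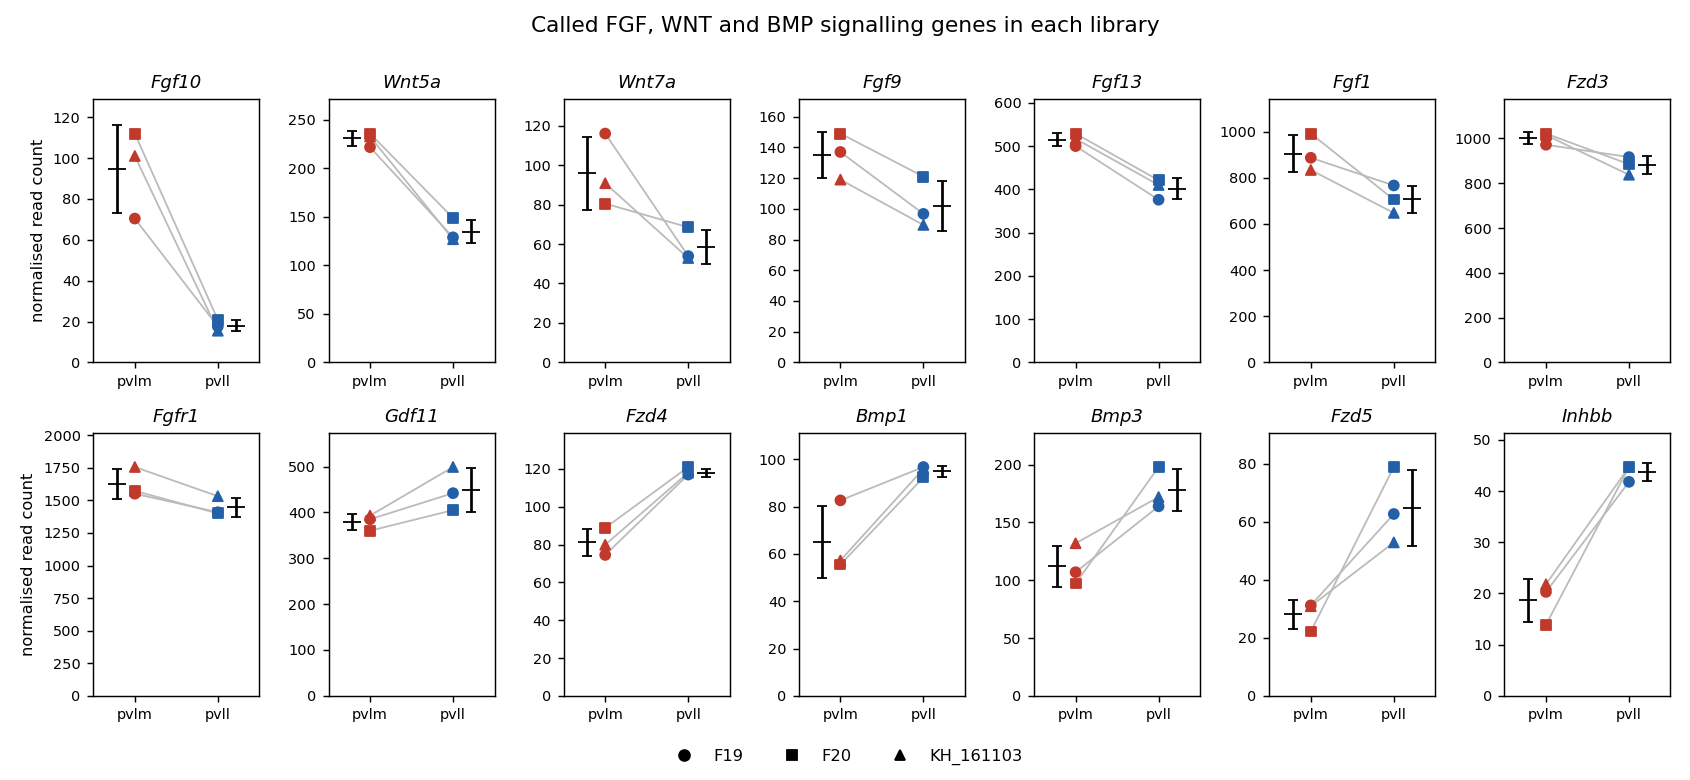
Normalised read counts of the 14 called members in each library, ordered by difference, with grey lines joining libraries of 1 title name (circle F19, square F20, triangle KH_161103) and black bars giving mean and SD of 3 libraries. The first 8 panels were higher in VMHpvlm (pvlm, red) and the last 6 in VMHpvll (pvll, blue), in 3 of 3 pairs each. Only in Fgf9 do the regions overlap.

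Other genes of the FGF pathway that were called stood mostly on the VMHpvll side. Of 25 tested genes of a list of 29, 9 were called higher in VMHpvll, beside 9.48% of all tested genes, and 1 higher in VMHpvlm, beside 10.5%. The median difference was -0.24 on the log2 scale, beside 0.00 for all tested genes. This list and the WNT and BMP lists below were chosen with earlier results of these data known. Their counts therefore describe these genes and test nothing. Kl, which encodes klotho, a coreceptor for hormone-like FGFs, was at 153 ± 27.3 in VMHpvlm and 264 ± 34.7 in VMHpvll. Its difference was -0.79 ± 0.12 (limma adjusted p = 9.06e-07).

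Among the called feedback genes, all but Spred1 were higher in VMHpvll. Dusp6, a phosphatase that switches off ERK, had counts of 75.8, 73.6 and 62.7 in VMHpvlm and 131, 113 and 113 in VMHpvll. Every VMHpvll library was above every VMHpvlm library (log2 difference -0.75 ± 0.16, limma adjusted p = 0.000338). Spry2 (97.9 ± 12.3 against 145 ± 11.1) and Spred3 (262 ± 27.6 against 374 ± 24.8), which dampen Ras signalling, were also higher in VMHpvll. So were Spry4 (115 ± 13.2 against 153 ± 12.2) and Etv5 (155 ± 7.28 against 217 ± 28.8), a transcription factor that FGF signalling induces. Spred1 was at 1901 ± 118 in VMHpvlm and 1591 ± 32.8 in VMHpvll. The calls of Kl, Dusp6, Spry2, Spred3 and Spred1 held when each pair was left out, but Spry2 was not called by DESeq2 (adjusted p = 0.117). Of the 10 called genes of this list DESeq2 called 4, and Etv5 and Spry4 were also not among them. The call of Etv5 ended without the KH_161103 pair (adjusted p = 0.0733), and that of Spry4 without the F19 pair (0.101), without the KH_161103 pair (0.223) and without the pairing (0.0655).

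Markers of several other cell types were also higher in VMHpvll. The summed normalised counts of 7 astrocyte markers were 25303 to 27515 in VMHpvlm and 30551 to 35516 in VMHpvll, with 4 of 7 called higher in VMHpvll. Of all tested genes 9.48% were called in that direction. Slc1a2 (19437 ± 655 against 24863 ± 2131) made up most of the astrocyte sum, and Slc1a3, Gja1 and Aldh1l1 were not called. For 8 oligodendrocyte markers the ranges were 11342 to 13045 and 15418 to 16522 (7 of 8 called), and for 11 vessel and fibroblast markers 1519 to 1893 and 2307 to 2721 (6 of 10 tested called). The 3 GABAergic markers summed to 798 to 1054 in VMHpvlm and 1991 to 2306 in VMHpvll. The 4 markers of oligodendrocyte precursors summed to 1445 to 1621 in VMHpvlm and 1721 to 1869 in VMHpvll. Of the 8 markers of VMH neurons 5 were called higher in VMHpvlm and 2 in VMHpvll, with sums of 11193 to 11233 and 12269 to 12724. The 5 were Nr5a1, Fezf1, Nkx2-1, Adcyap1 and Lmo3. The 2 were Esr1 (513 ± 74 in VMHpvlm against 1490 ± 63.8 in VMHpvll) and Pgr (1229 ± 98.7 against 3410 ± 197). The 6 microglia markers (882 to 958 and 954 to 1095) were not called, with all adjusted p-values above the threshold in the limma fit. No marker of these lists was at 0 in every library. In such tissue samples fewer cells of a type and less RNA per cell cannot be told apart, and the part of these cell types in the differences of the members was not tested.

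Of 8 tested WNT ligands, 2 were called, both higher in VMHpvlm, beside 10.5% of all tested genes. Wnt5a, the main ligand of the pathways that bypass beta-catenin, had counts of 222, 236 and 233 in VMHpvlm and 129, 149 and 127 in VMHpvll. The VMHpvlm libraries lay within a narrow band far above those of VMHpvll. The difference was 0.77 ± 0.12 (limma adjusted p = 1.26e-06). Wnt5a spans 28504750 to 28527448 on chromosome 14 of mm10, and 4.58% of its exon bases overlap Gm2670 on the other strand.

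Wnt7a, known for promoting presynaptic assembly and for signalling to brain endothelium, had counts of 116, 80.5 and 90.8 in VMHpvlm and 53.9, 68.5 and 52.9 in VMHpvll. The regions did not overlap, and the F20 libraries were the closest pair. The difference was 0.70 ± 0.18 (limma adjusted p = 0.00371). Leaving out the F19 pair ended the call (adjusted p = 0.142), as did leaving out the KH_161103 pair (0.0619). Wnt7b, a close relative with similar vascular roles, was not called, with 94.6 ± 4.64 against 104 ± 24.6 (log2 difference -0.10, 95% interval -0.42 to 0.21).

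Of the 6 tested WNT ligands that were not called, all had a fitted difference below 0. Of all 14522 tested genes, 7339 had a difference above 0. The differences of Wnt11 and Wnt7b changed sign without the F20 pair. Wnt5b, the paralog of Wnt5a, had counts of 13.5, 15.3 and 14.5 in VMHpvlm and 23.1, 25.3 and 22.8 in VMHpvll. Its regions did not overlap, yet it was not called (log2 difference -0.68 ± 0.34, limma adjusted p = 0.167). Wnt4, which can signal with or without beta-catenin, was at 35.8 ± 11.9 against 53.5 ± 7.05 and was not called with all pairs (limma adjusted p = 0.0626, and 0.0183 without the F19 pair). Wnt2b (69.0 ± 13.2 against 85.0 ± 14.5), Wnt3 (8.96 ± 2.54 against 13.4 ± 2.95) and Wnt11 (9.84 ± 4.72 against 13.8 ± 7.42) had adjusted p-values of 0.257, 0.447 and 0.587 by limma. The means of Wnt3 and Wnt11 were under 10 in VMHpvlm, so both reached the level for testing only through VMHpvll.

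Per kb of exon, the leading WNT ligands stood out in VMHpvlm, while those of VMHpvll could not be ranked. In VMHpvlm, Wnt7a (30.2 ± 5.84 per kb) and Wnt5a (29.5 ± 0.942) led and did not differ beyond their spread, followed by Wnt7b (19.3 ± 0.946) and Wnt2b (16.4 ± 3.15). In VMHpvll, Wnt7b (21.2 ± 5.03), Wnt2b (20.2 ± 3.44), Wnt7a (18.4 ± 2.75) and Wnt5a (17.2 ± 1.57) lay within each other's spread. The summed level of all 19 ligands was 121 ± 10.7 per kb in VMHpvlm and 116 ± 15.4 in VMHpvll. Wnt5a made up 24.6% ± 2.89 and 14.9% ± 0.659 of it, and Wnt7a 24.9% ± 2.56 and 15.8% ± 0.444.

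All 10 Frizzled receptors were tested. Of these, 1 was called higher in VMHpvlm (10.5% of all tested genes) and 2 in VMHpvll (9.48%). The count toward VMHpvlm lay near the share of all genes, which is no result about the family. Fzd5, a receptor for WNT ligands that can act through beta-catenin, had counts of 31.2, 22.2 and 30.9 in VMHpvlm and 62.7, 78.9 and 52.9 in VMHpvll. The lowest VMHpvll library was well above the highest VMHpvlm library, and the F20 pair had the widest gap. The difference was -1.18 ± 0.24 (limma adjusted p = 0.000181). Of the exon bases of Fzd5, 17.8% overlap Gm38058 on the other strand, so its reads are partly uncertain.

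Fzd4, the receptor for norrin in brain vessels, had counts of 74.5, 88.8 and 79.9 in VMHpvlm and 117, 121 and 118 in VMHpvll. The VMHpvll libraries were nearly equal, and all exceeded those of VMHpvlm. The difference was -0.54 ± 0.15 (limma adjusted p = 0.00746). Leaving out the F19 pair ended the call (adjusted p = 0.0686), as did leaving out the KH_161103 pair (0.0729). The vessel markers summed above moved in the same direction, and their part in the difference of Fzd4 was not tested.

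Fzd3, a receptor of axon guidance and planar polarity, was the most abundant Frizzled transcript, at 78.3 ± 2.09 per kb in VMHpvlm and 68.7 ± 3.09 in VMHpvll. Its normalised counts were 972, 1022 and 1015 in VMHpvlm and 917, 885 and 838 in VMHpvll. The regions did not overlap, with the F19 pair closest. The difference was 0.19 ± 0.06 (limma adjusted p = 0.0138), and the call ended without the KH_161103 pair (adjusted p = 0.242) and without the pairing (0.0774). Fzd10 was low, at 7.62 ± 1.83 against 17.4 ± 1.64, with no overlap, and reached the level for testing only through VMHpvll. It was not called (log2 difference -1.11 ± 0.42, limma adjusted p = 0.0576, and 0.0408 by edgeR).

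Fzd8 rested on 1 library: its count was 63.9 in the KH_161103 library of VMHpvll and between 18.2 and 33.3 in the other 5. Its log2 difference was -0.67 (limma adjusted p = 0.105, and 0.874 without the KH_161103 pair). It was called by edgeR (adjusted p = 0.0321) and, by limma, without the F20 pair (0.00662). The remaining Frizzled genes, Fzd1, Fzd2, Fzd6, Fzd7 and Fzd9, had adjusted p-values between 0.169 and 0.958 by limma. Fzd1, the second most abundant per kb, was at 34.4 ± 7.78 and 27.9 ± 2.95 per kb. The 10 receptors summed to 182 ± 17.2 per kb in VMHpvlm and 179 ± 2.65 in VMHpvll.

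**Figure D3:**
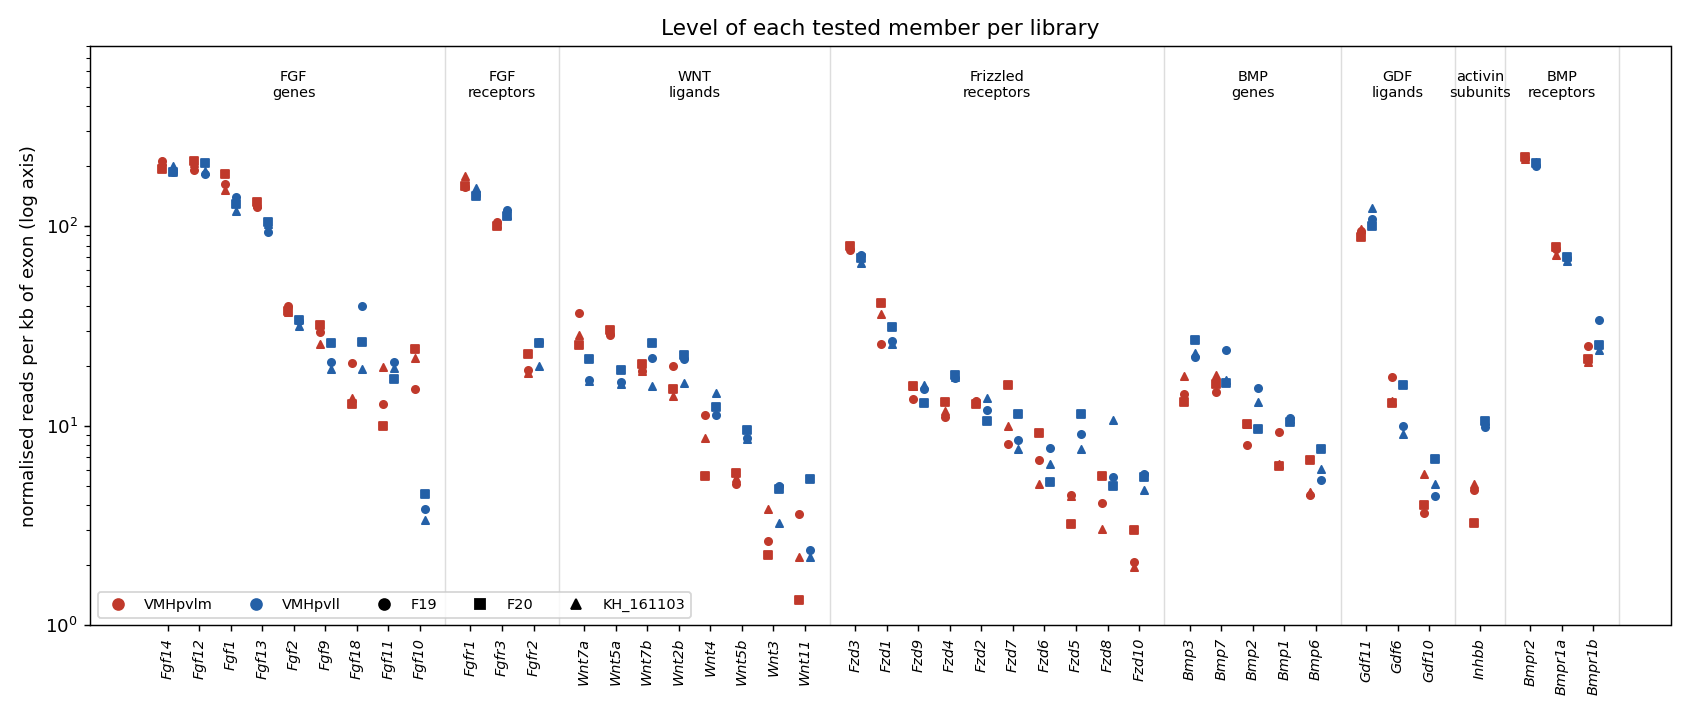
Normalised reads per kb of exon (log axis) of the 42 tested members in each library, ordered within each family by level, red for VMHpvlm and blue for VMHpvll, with a marker shape for each title name. Bmpr2, Fgf12 and Fgf14 lie near 200 in both regions, and Fgf10 shows the widest separation of red and blue.

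Among other WNT pathway genes that were called, the largest differences were in secreted inhibitors and feedback genes. Of 50 tested genes of a list of 58, 5 were called higher in VMHpvlm (10.5% of all tested genes) and 9 in VMHpvll (9.48%). The median was -0.10 on the log2 scale. The share toward VMHpvlm lay near that of all genes, which is no result about the list. Sfrp1, a secreted antagonist that binds WNT ligands, had counts of 74.5, 65.2 and 77.2 in VMHpvlm and 309, 238 and 301 in VMHpvll. It was 3.91-fold higher in VMHpvll with no overlap (log2 difference -1.95 ± 0.13, limma adjusted p = 2.49e-16). Nkd2, which binds Dishevelled and dampens the pathway, had counts of 190, 176 and 197 in VMHpvlm and 71.5, 124 and 50.2 in VMHpvll. It was 2.30-fold higher in VMHpvlm with no overlap (log2 difference 1.29 ± 0.22, limma adjusted p = 0.000811). Rspo1, which amplifies WNT signals through Lgr receptors, was at 463 ± 44.1 in VMHpvlm and 335 ± 26.4 in VMHpvll (log2 difference 0.47 ± 0.08).

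The calls of Sfrp1, Nkd2 and Rspo1 held when each pair was left out. The other 11 lost the call in at least 1 such fit. Of the 14 called genes of this list DESeq2 called 4. Lgr5, a receptor for the Rspo proteins, had 39.2 ± 1.70 against 19 ± 7.34 normalised counts, and its call ended without the KH_161103 pair (adjusted p = 0.196). Wif1, a further secreted inhibitor, was at 5.47 ± 2.70 and 18.5 ± 7.20 and reached the level for testing only through VMHpvll. Its call also ended without the KH_161103 pair (0.219). So did those of Prickle1 (0.0762), a polarity gene higher in VMHpvlm, and Celsr2 (0.110), likewise higher there and also not called without the pairing (0.0749). Higher in VMHpvll were Lef1, a nuclear partner of beta-catenin (adjusted p of 0.263 with F19 left out and 0.0696 with KH_161103 left out), the coreceptor Lrp5 (0.0543 without F19) and Kremen1, a receptor for the inhibitor Dkk1 (0.109 without F19). Porcn, which acylates WNT ligands, was higher in VMHpvll as well (0.0792 without F19, 0.146 without KH_161103 and 0.0710 without the pairing).

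Of the BMP, GDF and activin genes, Inhbb had the largest difference among those tested. Inhbb encodes the beta B subunit of activin B and inhibin B. Its counts were 20.3, 13.9 and 21.8 in VMHpvlm and 41.8, 44.7 and 44.7 in VMHpvll. The VMHpvll libraries were nearly equal and far above the others. The difference was -1.21 ± 0.28 (limma adjusted p = 0.00094), and it was lower in VMHpvlm in 3 of 3 pairs. Inhbb spans 119415465 to 119422248 on chromosome 1 of mm10, with no exon overlap with another gene. Inhba, the beta A subunit, had 17 reads in VMHpvlm and 27 in VMHpvll, summed over 3 libraries each, and was under the level for testing.

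Bmp3, an atypical BMP that can oppose the signalling of other BMPs, had counts of 107, 97.2 and 132 in VMHpvlm and 164, 198 and 172 in VMHpvll. No VMHpvlm library reached the lowest VMHpvll library. The difference was -0.67 ± 0.14 (limma adjusted p = 0.000173). Bmp3 and Bmp7 were the most abundant BMP ligands per kb. Bmp3 was at 15.1 ± 2.40 per kb in VMHpvlm and 24.0 ± 2.43 in VMHpvll, and Bmp7 at 16.3 ± 1.51 and 19.1 ± 4.29.

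Bmp1, which despite its name is a protease that processes procollagen and BMP antagonists, had counts of 82.6, 55.5 and 57.2 in VMHpvlm and 96.7, 92.3 and 95.9 in VMHpvll. The VMHpvll libraries were again close together, and the F19 library of VMHpvlm came nearest to them. The difference was -0.56 ± 0.17 (limma adjusted p = 0.0156), and the call ended without the F20 pair (adjusted p = 0.0814), without the KH_161103 pair (0.182) and without the pairing (0.0550). Gdf11, a relative of myostatin, was called in the same direction, with counts of 385, 360 and 393 in VMHpvlm and 442, 405 and 499 in VMHpvll. The regions did not overlap, and the gap at their edge was small (393 and 405). The difference was -0.24 ± 0.08 (limma adjusted p = 0.0275). The call of Gdf11 ended without the F19 pair (adjusted p = 0.0599), without the KH_161103 pair (0.310), without the pairing (0.112), with no filter on low values (0.0508) and with libraries scaled to the same total, where its difference was -0.22.

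The other tested ligands were not called. Bmp2 was at 33.6 ± 4.49 in VMHpvlm and 45.3 ± 10.4 in VMHpvll, Bmp6 at 20.7 ± 4.91 and 24.8 ± 4.54, and Bmp7 at 65.5 ± 6.08 and 76.9 ± 17.2 normalised counts. Their limma adjusted p-values were 0.289, 0.634 and 0.495. All 5 tested Bmp genes, the protease gene Bmp1 among them, had a fitted difference below 0, though that of Bmp7 changed sign without the F19 pair. Of all 14522 tested genes, 7339 had a difference above 0. Gdf6, a BMP-like ligand, was at 51.8 ± 9.14 and 41.2 ± 13.4, and Gdf10 at 23.3 ± 5.89 and 28.4 ± 6.55.

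No receptor of the group was called, and Bmpr2 and Bmpr1a were abundant and close to even. Bmpr2, the type II receptor, had counts of 3936, 3975 and 3914 in VMHpvlm and 3585, 3745 and 3778 in VMHpvll. It was slightly higher in every VMHpvlm library and was not called (log2 difference 0.09, 95% interval 0.02 to 0.17, limma adjusted p = 0.0813, and 0.0413 with libraries scaled to the same total). Bmpr1a was at 486, 500 and 457 in VMHpvlm and 441, 447 and 427 in VMHpvll, with no overlap, and Bmpr1b at 135 ± 13.8 against 166 ± 32.5. Neither was called (limma adjusted p = 0.245 and 0.107). Bmpr1b was higher in VMHpvll in 3 of 3 pairs (log2 difference -0.29, 95% interval -0.54 to -0.03). Per kb, Bmpr2 (219 ± 1.74 in VMHpvlm, 206 ± 5.75 in VMHpvll) was the most abundant receptor transcript of all members, above Fgfr1 (165 ± 11.4 and 147 ± 7.46).

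In the wider BMP and activin pathway the called Id target genes were higher in VMHpvll, and the activin receptors Acvr1b and Acvr1c higher in VMHpvlm. Of 50 tested genes of a list of 59, 8 were called in each direction, beside 10.5% (VMHpvlm) and 9.48% (VMHpvll) of all tested genes. The median was -0.04. Id2 had counts of 330, 360 and 350 in VMHpvlm and 603, 550 and 728 in VMHpvll (log2 difference -0.84 ± 0.08, limma adjusted p = 1.68e-11). Its regions were far apart in all 3 pairs. Id1 (9.33 ± 6.55 against 23.1 ± 1.95) and Id3 (9.48, 40.3 and 30 against 45.1, 49.1 and 55.7) were called in the same direction, as was Id4 (669 ± 78.2 against 906 ± 129), which was named after its values were seen. The calls of Id2 and Id4 held when each pair was left out. The mean of Id1 was under 10 in VMHpvlm, so it reached the level for testing only through VMHpvll. The call of Id1 ended with F19 left out (adjusted p = 0.116) and with KH_161103 left out (0.0746), and that of Id3 without the F19 pair (0.201) and without the pairing (0.136). Id genes are also known from astrocytes and vessels. Some but not all markers of these were called higher in VMHpvll, as given above, and the part of those cells was not tested.

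Also higher in VMHpvll were Vwc2l (105 ± 25.5 against 235 ± 0.378), which encodes a secreted protein of the chordin type, the pseudoreceptor Bambi (51.2 ± 18.6 against 91.8 ± 6.92) and the TGF-beta receptor Tgfbr2 (60.9 ± 11.1 against 104 ± 14.0). The call of Tgfbr2 ended without the F19 pair (adjusted p = 0.0582). By DESeq2 neither Bambi nor Tgfbr2 was called (adjusted p = 0.0694 for each). Of the 16 called genes of this list DESeq2 called 7, and Id1, Id3 and Acvr1c were also not among them. Acvr1b, the type I receptor of activin also called ALK4, was higher in VMHpvlm, with counts of 902, 945 and 905 there and 560, 698 and 544 in VMHpvll. This was opposite to the ligand subunit Inhbb (log2 difference of Acvr1b 0.62 ± 0.06, limma adjusted p = 2.50e-10). Acvr1c, the related receptor ALK7, was at 87.4 ± 19.4 and 53.6 ± 10.5, and its call ended without the F20 pair (adjusted p = 0.291). Smad3 (250 ± 8.74 against 180 ± 17.9), which transmits activin signals, Fstl4 of the follistatin-like family (380 ± 23.4 against 255 ± 10.1) and the coreceptor Tgfbr3 (189 ± 10.1 against 122 ± 8.23) were higher in VMHpvlm. Their calls held when each pair was left out, but Smad3 was not called by DESeq2 (adjusted p = 0.082).

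**Figure D4:**
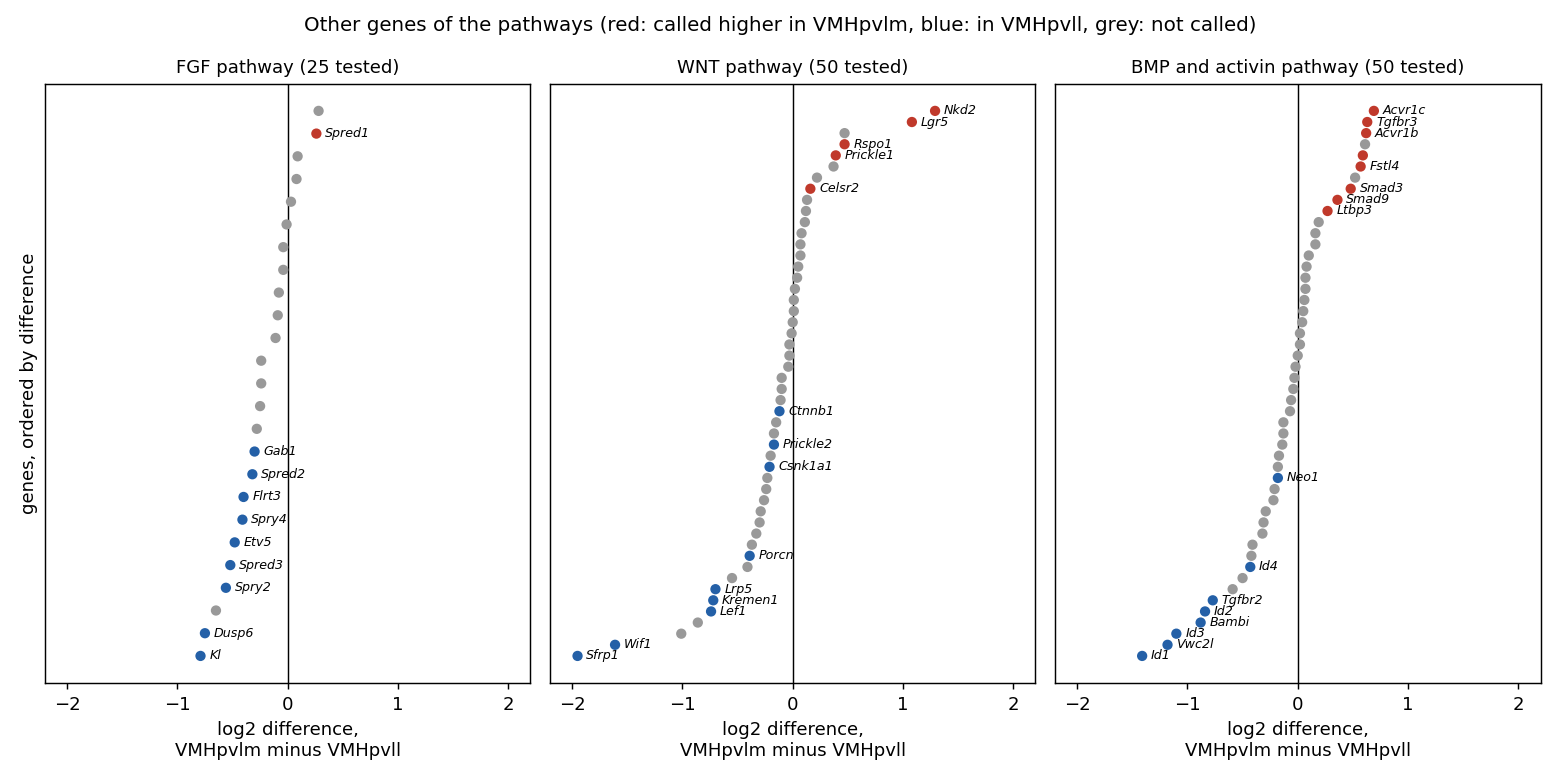
Fitted log2 difference between the regions (positive: higher in VMHpvlm) for each tested gene in the 3 pathway lists that are not members, ordered from lowest to highest, with most called genes named. In the FGF list 9 of 10 called genes lie to the left, higher in VMHpvll. In the WNT list 9 of 14 do, with Sfrp1 farthest, and the BMP and activin list is even at 8 and 8.

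The 41 members under a mean of 10 normalised counts had between 0 and 54 reads in all 6 libraries together. Of these, 11 had 0 reads: Bmp10, Fgf4, Fgf6, Fgf21, Gdf1, Gdf2, Gdf3, Inhbc, Inhbe, Wnt3a and Wnt9b. A count of 0 allows up to 3 reads in a library, which is 2.72 to 4.47 normalised counts, by counting error alone. All exon bases of Gdf1 are shared with Cers1 or Upf1, so its 0 says nothing of its level. The 6 with the highest means were Bmp4, Gdf7, Inhba, Fgf22, Wnt2 and Fgf7, at 9.57, 9, 8.14, 7.94, 7.22 and 5.52 normalised counts.

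Of the 41, 30 had at least 1 read. Among these 30, regions did not overlap for 6 toward VMHpvll and for 1, Wnt9a, toward VMHpvlm. The shares of all genes under the same level with any read were 3.66% and 2.84%. The 6 were Gdf7, Fgf5, Bmp8a, Wnt6, Wnt10b and Wnt16. Wnt16 rested on 1 read in each VMHpvll library and 0 in each of VMHpvlm. Wnt10b had 14 reads against 10, and its regions nearly touched, at 4.57 and 4.54 normalised counts. Gdf7, a BMP-like ligand of the roof plate, had 18, 4 and 21 reads in the VMHpvll libraries and 3, 1 and 4 in those of VMHpvlm. Fgf5 had 5, 4 and 8 reads in VMHpvll and 1, 0 and 2 in VMHpvlm. In the fit without a filter, these were the only ones of the 41 that were called, both higher in VMHpvll (log2 difference -1.90 and limma adjusted p = 0.00542 for Gdf7, and -1.94 and 0.0455 for Fgf5). In that fit 4.76% of 27293 genes were called higher in VMHpvll and 5.25% higher in VMHpvlm. Bmp8a had 12 reads in VMHpvll and 1 in VMHpvlm and was not called in that fit (limma adjusted p = 0.0521). Both called genes rest on few reads, 51 for Gdf7 and 20 for Fgf5.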

How the data were processed

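The authors deposited 1 table of normalised counts (a signal, gene counts divided by a size factor per library). The submitters' processing notes name HISAT2, featureCounts and mm10 with no version. The sources used here do not give the annotation or the use of strand, so reads of overlapping genes cannot be told apart. Dividing each value by what 1 read is worth in its library gave whole reads for 100% of values (tolerance 0.05 reads).

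With limma 3.58.1 (R 4.3.3, trend and robust prior), log2(value + 1) was fitted for 14522 genes whose mean reached 10, with region and pair name in the model and two-sided tests. This left 2 residual degrees of freedom, with a median prior of 39.9. Same-named libraries deviated together (correlations 0.255, 0.244 and 0.363; -0.247 to 0.007 otherwise). The pairing comes from the titles, which do not say that a name is 1 animal: the p-values cover only how much the libraries vary, which may be technical. Alternatives were pseudocounts of 0.5 and 5, a mean of at least 50 or no filter, other scalings, no block, another prior, each pair left out, and edgeR 4.0.16 and DESeq2 1.42.0 on recovered reads. Exon lengths and overlaps came from GENCODE M21 (GRCm38). Every called member is named with its values in each library. Called pathway genes were named by size of difference, up to 6 per list and direction, except 1 gene of the BMP list that is counted but not reported by name here. Id4 was named outside this rule. Members and lists were chosen with earlier results of these data known.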

Additional observations from a re-analysis of the deposited data

How the results depend on the processing

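Of the 14 called members, 14 stayed called with pseudocounts of 0.5 and 5, the same upper quartile and edgeR, 13 with the same total and 12 with no filter, where Fgf9 (adjusted p = 0.0699) and Gdf11 (0.0508) lost the call. Of the 14, 12 had a mean of at least 50, and these 12 stayed called there. Without the replicate block, 5 members were called higher in VMHpvlm and 4 in VMHpvll, of 937 and 863 genes in all, and 6 FGF, 12 WNT and 13 BMP pathway genes were called. Without trend and robust prior the member counts were 2 and 2 (189 and 233 of all genes), and 1 FGF, 1 WNT and 0 BMP pathway genes were called by limma (18 of the BMP list had an unadjusted p below 0.05, and edgeR called 17). With DESeq2 they were 4 and 2 (648 and 582 of all genes), and 4 FGF, 4 WNT and 7 BMP pathway genes were called. The cause of these lower counts was not tested. Leaving out each pair gave 4 to 7 members higher in VMHpvlm and 3 to 6 in VMHpvll (935 to 1511 and 838 to 1361 of all genes), 6 to 10 FGF, 5 to 16 WNT and 12 to 18 BMP pathway genes; the lowest counts, except for the BMP list, came without the KH_161103 pair. With edgeR, 9 members were called in VMHpvll. The difference changed sign only in members that were not called, without F19 for Bmp7 (0.03) and without F20 for Fzd6 (-0.26), Fzd9 (-0.09), Wnt11 (0.27) and Wnt7b (0.01). The 41 members under the filter had 0 to 54 reads each, over 6 libraries.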
